A study of Mus musculus with 12 samples.

Results

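The response of hepatocytes to removal of liver mass was followed in mice whose hepatocytes received P16 from a viral vector. It was read from 6 of the 12 libraries of the study, chosen by their labels: 3 P16 mice before the operation (0 h) and 3 P16 mice 48 h after it. Of 31053 genes in the count table, 12257 passed a filter on low counts and were tested. The other 6 libraries, from mice that received the vector without P16, serve only for comparison.

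All mice were C57BL/6J wild types, 3 months old and fed standard chow, and each library came from 1 mouse. Vectors of the adeno-associated virus AAV8 were given by tail vein, either AAV8-TBG-eGFP-P16 (P16 mice) or AAV8-TBG-eGFP (GFP mice), so eGFP was part of the vector in every group and P16 was part of it at both times in the P16 arm. The TBG promoter is active in hepatocytes, which limits the model to P16 supplied in these cells. A 70% partial hepatectomy was done a week after injection, and hepatocytes were isolated by collagenase perfusion at 0 h or at 48 h. The labels state that only preparations of high viability and purity were used. No sham-operated mice are among the 12 samples, so surgery and loss of liver mass cannot be told apart. Sex is not stated in the labels.

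After partial hepatectomy, the hepatocytes that remain leave quiescence, replicate their DNA and divide until liver mass is restored. P16 is an inhibitor of the cyclin D kinases CDK4 and CDK6, and it keeps the retinoblastoma protein in the form that holds E2F transcription factors in check. Genes of S phase are classic targets of E2F, whereas many genes of G2 phase and mitosis carry a CHR element in their promoter, through which the MuvB complex represses them in resting cells and, together with B-Myb and FoxM1, activates them in dividing cells.

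The 6 libraries held 14617049 to 19270890 reads in genes. Levels are given in CPM, the reads of a gene scaled to all reads in genes of its library after TMM scaling, as mean ± SD (n = 3 mice a group) unless single libraries are listed. Changes are log2 fold changes of 48 h against 0 h with the standard error (SE) and the adjusted p of edgeR's quasi-likelihood test, and a gene is said to have risen or fallen where this adjusted p was under 0.05. In a principal component analysis of the 6 libraries, the first component held 70.6% of the variance and separated the times, and the second (10.04%) set replicate 1 of the 0 h group apart from the rest of its group. Transcripts of the mitochondrial genome took 12.9 to 22.6% of the reads at 0 h and 9.17 to 14.3% at 48 h. Reads outside annotated features came to 9.8% in replicate 1 at 48 h and to between 4.39 and 6.89% in the other P16 libraries, and whether this bears on the results was not tested.

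Cdkn2a (ENSMUSG00000044303, chromosome 4, 89274471 to 89294653, minus strand, GRCm38), the gene that encodes P16, was measured at 49.2, 6.38 and 25.1 CPM in the 3 P16 libraries at 0 h and at 12.8, 26.2 and 18.8 CPM in those at 48 h. In the GFP mice it was at 0 CPM in all libraries but 1 at 48 h, which had 0.251 CPM. All 6 P16 libraries were thus above all GFP libraries, and the P16 groups overlapped each other. Within the P16 arm the level did not pass the test between the times (log2 change -0.48 with SE 0.72, adjusted p = 0.645), and without replicate 1 at 0 h the estimate was 0.29. Reads of the vector and of the mouse gene were not separated.

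All 15 hepatocyte markers were tested. Of these 3 fell (20%), 1 rose (6.67%) and 11 did not pass, with a median log2 fold change of -0.34. Over all genes tested, 19% fell and 19.6% rose. Without replicate 1 at 48 h 5 fell, and without replicate 2 at 48 h none rose. Albumin transcripts (Alb) were at 49005, 48988 and 42968 CPM at 0 h and at 61401, 56852 and 57894 CPM at 48 h, and did not pass the test (adjusted p = 0.156). The markers together summed to 96280 to 108600 CPM at 0 h and 97160 to 106400 CPM at 48 h. These genes were thus abundant at both times, as the label of hepatocytes requires.

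At 48 h, 2398 genes were higher (19.6% of those tested) and 2333 were lower (19%) than at 0 h in P16 mice. Together they made 38.6% of the genes tested. Counts of list members given below are to be read beside these shares. More than a 2-fold change was seen in 1163 of the higher genes (9.49%) and 933 of the lower genes (7.61%), and the largest changes were mostly rises, with 361 rises and 78 falls over 8-fold. The median change over all genes tested was 0.00 on the log2 scale and the median SE 0.20. In bulk RNA, fewer cells of a type and less RNA per cell cannot be told apart. Among 131 genes that rose over 8-fold and averaged at least 5 CPM, 66 belonged to lists of G1/S, replication, repair or mitosis genes. These lists held 25, 48, 29 and 70 of the 12257 genes tested. Their share among genes of at least 5 CPM is not given here. There were 58 risen genes with 0 reads in all 3 libraries at 0 h and 4 fallen genes with 0 reads in all 3 at 48 h, whose fitted fold changes depend on the prior count.

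**Figure D1:**
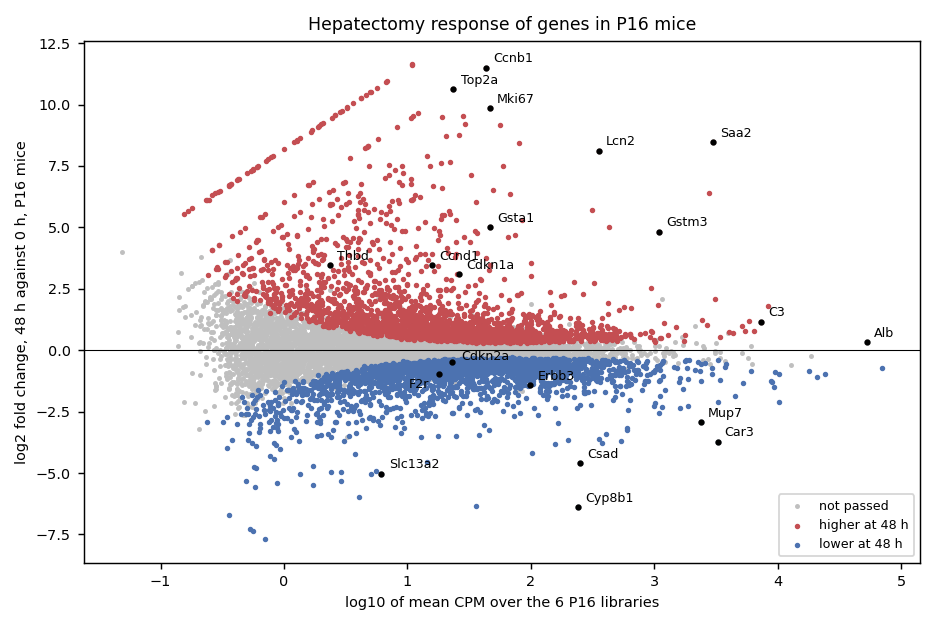
Each point is 1 of 12257 genes, with the log10 of its mean CPM over the 6 P16 libraries on the horizontal axis and its log2 fold change (48 h against 0 h, P16 mice) on the vertical axis; red and blue points passed the test and black points are labelled genes. Cell cycle genes such as Ccnb1 and Mki67 lie at the top and Cyp8b1 and Csad at the bottom, and the straight line of points at the upper left holds genes with 0 reads at 0 h, whose height depends on the prior count.

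**Figure D2:**
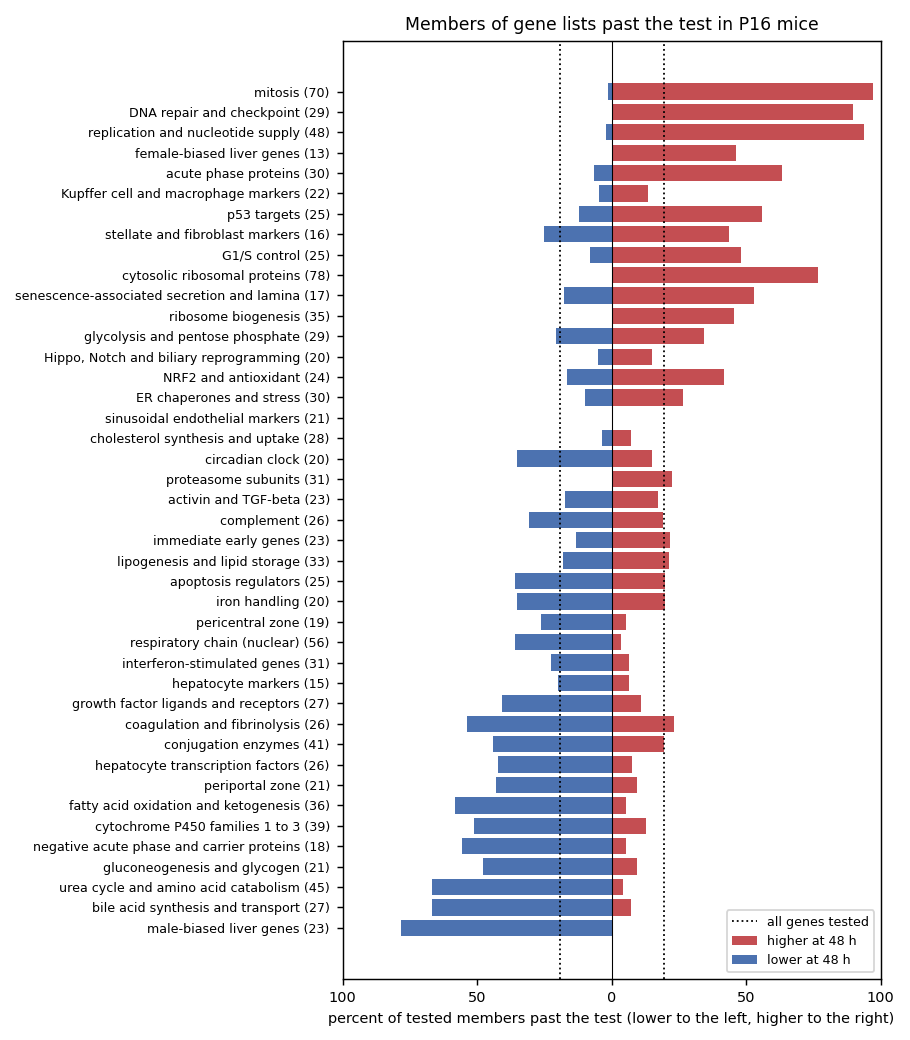
Bars give the percent of tested members of each gene list (number tested in brackets) that passed the test in P16 mice, to the right for genes higher at 48 h and to the left for genes lower; dotted lines mark the 19.6% and 19% of all genes tested. Lists are ordered by median log2 fold change, from male-biased genes (-2.00) to mitosis genes (6.20).

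Genes of mitosis showed the most uniform change of all lists examined. Of 70 members, all tested, 68 rose and 1 fell, with a median log2 fold change of 6.20, against 0.00 for all genes. The median was 6.16 when other values replaced the fitted changes of the 19 members near 0 reads. These were a bound for the 9 members at 0 reads and the ratio of reads for the rest. The summed level of the list was 106 to 132 CPM at 0 h and 2083 to 2866 CPM at 48 h. The promoters of 3 mitosis genes and 2 replication genes are shown as RefSeq gives them on GRCm38.p6, from 250 bases before to 50 after the transcript start. These genes were picked for the highest level at 48 h among members that passed, not for the size of their rise. Capitals mark CCAAT (or its complement ATTGG) and the CHR letters TTTGAA (or TTCAAA on the other strand). They belong to Cdc20 (chr4:118437294-118437593, minus strand), Kpna2 (chr11:106999476-106999775, minus strand), Ube2c (chr2:164769679-164769978, plus strand), Pcna (chr2:132253131-132253430, minus strand) and Rrm2 (chr12:24708004-24708303, plus strand).
Cdc20: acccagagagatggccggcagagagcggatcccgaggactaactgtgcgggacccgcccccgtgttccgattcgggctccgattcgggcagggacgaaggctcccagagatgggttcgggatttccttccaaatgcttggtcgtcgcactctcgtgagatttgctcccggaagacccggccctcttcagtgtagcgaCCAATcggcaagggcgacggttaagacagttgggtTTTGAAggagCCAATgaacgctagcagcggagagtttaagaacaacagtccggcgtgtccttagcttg
Kpna2: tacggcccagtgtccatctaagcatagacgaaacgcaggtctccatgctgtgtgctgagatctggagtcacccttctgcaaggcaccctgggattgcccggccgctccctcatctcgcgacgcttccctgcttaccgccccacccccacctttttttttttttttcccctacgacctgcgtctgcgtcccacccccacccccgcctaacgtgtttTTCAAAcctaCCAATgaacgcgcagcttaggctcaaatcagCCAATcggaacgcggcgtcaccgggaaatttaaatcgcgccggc
Ube2c: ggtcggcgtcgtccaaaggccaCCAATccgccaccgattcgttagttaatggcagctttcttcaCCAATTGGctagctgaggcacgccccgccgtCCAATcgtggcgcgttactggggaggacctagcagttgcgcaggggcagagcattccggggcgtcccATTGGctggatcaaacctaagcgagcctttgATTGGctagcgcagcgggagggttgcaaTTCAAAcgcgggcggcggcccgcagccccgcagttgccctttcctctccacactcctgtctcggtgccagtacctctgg
Pcna: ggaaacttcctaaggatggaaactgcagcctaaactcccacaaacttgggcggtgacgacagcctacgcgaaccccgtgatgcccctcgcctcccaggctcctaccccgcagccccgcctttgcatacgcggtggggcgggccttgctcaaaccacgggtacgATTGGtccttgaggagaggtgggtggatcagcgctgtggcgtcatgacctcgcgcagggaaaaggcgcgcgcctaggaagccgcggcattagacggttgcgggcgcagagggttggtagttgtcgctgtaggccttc
Rrm2: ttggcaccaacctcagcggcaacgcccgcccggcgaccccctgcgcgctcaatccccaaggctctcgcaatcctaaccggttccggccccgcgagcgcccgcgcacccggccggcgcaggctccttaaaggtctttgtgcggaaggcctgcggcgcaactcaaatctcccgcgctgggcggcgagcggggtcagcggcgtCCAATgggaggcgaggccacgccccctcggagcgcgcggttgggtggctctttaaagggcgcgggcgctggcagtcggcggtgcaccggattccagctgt

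In the Cdc20 promoter the CHR letters begin 18 bases before the start and CCAAT boxes 53 and 8 bases before it. In Kpna2 the CHR letters begin 35 bases and a CCAAT box 25 bases before the start, and in Ube2c the CHR letters begin 29 bases before it, with 6 CCAAT matches upstream. The Pcna and Rrm2 windows hold 1 CCAAT match each, 87 and 50 bases before the start, and neither the CHR letters nor TTCCCGC or TTGGCGC, the E2F-type letters searched. Over all members with a promoter entry and on both strands, TTTGAA or TTCGAA was found in 43 of 58 mitosis promoters (74.1%), against 14.0% of the 9608 promoters of all genes tested. Both CCAAT and CHR letters were found in 60.3% of mitosis promoters and 5.91% of all. The E2F-type letters showed the other pattern, with 17.2% of mitosis promoters, 19 of 38 replication promoters and 47.6% of 21 repair promoters, against 12.5% of all. Among genes that rose over 8-fold at 5 CPM or more but are in none of the 4 cell cycle lists, 29.8% of 47 promoters held the CHR letters; the share was 18.4% over all risen, 13.2% over all fallen and 12.8% over all other genes. These matches are descriptions of short windows, and no binding was measured here.

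Cdc20, the activator of the anaphase-promoting complex, went from 0.428 to 159 CPM (log2 change 8.42 with SE 0.40, adjusted p = 6.49e-09). Ube2c, the ubiquitin-conjugating enzyme of that complex, went from 0.187 to 111 CPM (log2 change 9.18 with SE 0.39). Kpna2, an importin that also serves spindle assembly, had a higher start, 27.5 CPM, and reached 138 CPM (log2 change 2.32 with SE 0.21). The range of starting levels was wide within the list, and the genes that were near 0 reads at 0 h have the least certain fold changes.

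Ccnb1 (chromosome 13), the cyclin that drives entry into mitosis with CDK1, stood at 0, 0.0608 and 0 CPM at 0 h and at 86.7, 71.5 and 101 CPM at 48 h. A single read at 0 h stood against 5062 at 48 h, a ratio of 3790 with a 95% counting interval from 679.9 to 149700. Aurkb, the kinase of the chromosomal passenger complex, had 0 reads in all 3 libraries at 0 h and 21.9, 21.9 and 21.7 CPM at 48 h, at least 314-fold higher when 3 reads over the group are taken as the floor. On the same floor the kinesin Kif2c, which depolymerises microtubules at kinetochores, was at least 315-fold higher, the checkpoint kinase Ttk at least 197-fold, the formin Diaph3 at least 198-fold, the phosphatase Cdc25c at least 148-fold and the spindle protein Troap at least 166-fold. All adjusted p for these genes were between 3.93e-11 and 3.16e-08.

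Mki67, whose protein Ki-67 coats mitotic chromosomes and marks cycling cells, was at 0.0794, 0.0608 and 0.142 CPM at 0 h and at 87.1, 79.3 and 111 CPM at 48 h. No library at 48 h came near the level of any library at 0 h (928-fold, log2 change 9.86 with SE 0.27, adjusted p = 1.11e-14). Top2a, the topoisomerase that untangles sister chromatids, rose from 1 read in 3 libraries to 41.3, 46.5 and 53.5 CPM (ratio 2041, 95% counting interval 366 to 80650). Against the run of the list, Pttg1, which encodes securin, fell (log2 change -0.59 with SE 0.18, adjusted p = 0.0143) and Mybl2, which encodes B-Myb, did not pass (0.359 ± 0.448 CPM at 0 h, 0.45 ± 0.196 CPM at 48 h, adjusted p = 0.765); these members were picked out after their values were seen. The fall of Pttg1 did not pass without replicate 1 or replicate 2 at 0 h or without replicate 2 at 48 h.

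In the GFP mice the same list also had 68 members higher and 1 lower at 48 h, with a median of 6.20. None of its 70 members passed the test of the difference between the arms. For that difference 22 members had an unadjusted p under 0.05, against 11.8% of all genes tested. The median difference of the list was 0.32 on the log2 scale. At 48 h Mki67 stood at 98.8, 88.0 and 78.9 CPM in GFP mice, values that overlap those of the P16 libraries. The plot of single genes shows these values with those of the other genes followed in every library.

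**Figure D3:**
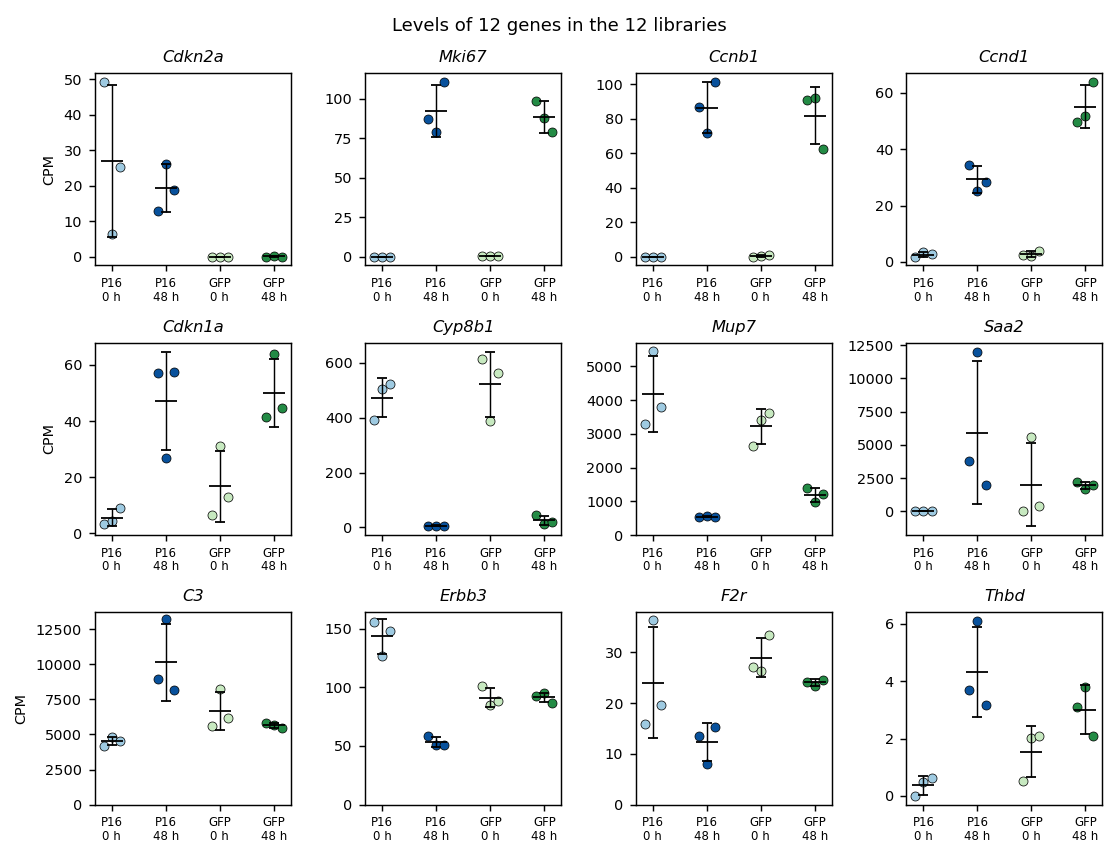
Points are CPM of 12 genes in the 12 libraries, by group of 3 mice, and bars give the mean and SD. Mki67 and Ccnb1 are near 0 CPM at 0 h and between 62.7 and 111 CPM at 48 h in both arms, whereas Erbb3 and C3 separate the times in P16 mice without such a separation in GFP mice.

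Genes of DNA replication and nucleotide supply rose almost as uniformly. Of 48 members, 45 rose and 1 fell, with a median log2 fold change of 2.501. Mcm5, a subunit of the replicative helicase, was at 0.794, 1.16 and 1.70 CPM at 0 h and at 47.3, 47.6 and 48.8 CPM at 48 h (38.9-fold, log2 change 5.28 with SE 0.25, adjusted p = 2.26e-11). Uhrf1, which guides DNA methylation to newly made strands, had 1 read in 3 libraries at 0 h and 22.9, 28.5 and 21.9 CPM at 48 h (ratio 1041, 95% counting interval 186.6 to 41170). The licensing factor Cdc6 (ratio 130 from 2 reads, interval 35.7 to 1077), the fork protein Clspn (at least 54.9-fold) and the GINS subunit Gins2 (46.1-fold, adjusted p = 8.75e-07) rose as well.

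Pcna, the sliding clamp of the fork, was already at 24.1 CPM at 0 h and rose to 81.9 CPM (log2 change 1.76 with SE 0.18), and Rrm2, the regulated subunit of ribonucleotide reductase, rose from 2.57 to 70.7 CPM (log2 change 4.78 with SE 0.18). Mcm10 was the member that fell (log2 change -1.67, adjusted p = 3.06e-05), and Tk1 and Pold2 did not pass (log2 changes 0.48 and -0.22); these 3 were named after their values were seen. The annotation the authors counted with is not stated, so whether the rows of Mcm10 and Mybl2 hold only reads of these genes was not tested. Of 29 genes of DNA repair and checkpoint control, 26 rose and none fell, with a median of 3.39. Among them the recombination factors Rad51ap1 (at least 92.8-fold) and Bard1 (at least 48.4-fold) and the glycosylase Neil3 (at least 58.1-fold) had 0 reads at 0 h.

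At the G1/S boundary the response was mixed. Of 25 members, 12 rose (48%), 2 fell (8%) and 11 did not pass, with a median of 0.62. Over all genes tested, 19.6% rose and 19% fell. Ccnd1, which encodes cyclin D1, the partner of CDK4 and CDK6, was at 1.83, 3.34 and 2.62 CPM at 0 h and at 34.4, 25.1 and 28.2 CPM at 48 h (11.1-fold, log2 change 3.47 with SE 0.23, adjusted p = 1.94e-09). The GFP libraries at 48 h, at 49.8, 51.8 and 63.8 CPM, were all above the P16 libraries at 48 h; the rise there was 4.32 on the log2 scale, and the difference between the arms did not pass the test. Ccne1, the cyclin of CDK2, rose 22.7-fold from 0.321 ± 0.305 to 7.94 ± 0.728 CPM, and E2f2 rose 6.24-fold. The CDK2 regulator Cks1b and the pocket protein gene Rbl1 rose 6.26-fold and 11.3-fold. The kinases themselves, Cdk4 and Cdk6, did not pass (log2 changes 0.21 and -0.13), and the 2 members that fell were Rbl2 (log2 change -0.89) and Rb1 (-0.66), the genes of the pocket proteins p130 and Rb, named after their values were seen. A single one of these 2 falls passed when any P16 library other than replicate 1 at 0 h was left out.

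Several inhibitors of the cyclin-dependent kinases also rose. Of 7 tested members, 4 rose and none fell; Cdkn2b, with no more than 14 reads in a library, could not be tested. Cdkn1a, which encodes P21, the inhibitor induced by p53, was at 3.26, 4.32 and 8.92 CPM at 0 h and at 57.2, 26.9 and 57.5 CPM at 48 h (8.57-fold, log2 change 3.10 with SE 0.64, adjusted p = 0.00491). In GFP mice it was at 6.55, 31.0 and 12.8 CPM at 0 h and 41.5, 63.9 and 44.6 CPM at 48 h and did not pass (log2 change 1.56, adjusted p = 0.0693). Cdkn2c and Cdkn2d, relatives of P16 that also bind CDK4 and CDK6, rose 5.44-fold and 3.50-fold, from 5.64 ± 1.54 to 31.0 ± 2.26 CPM and from 3.15 ± 0.841 to 11.1 ± 2.43 CPM. Cdkn3, a phosphatase of CDK1 and CDK2, rose from 0.0811 ± 0.14 to 41.2 ± 7.87 CPM (log2 change 8.70 with SE 0.42). The differences between the arms did not pass for any of the 7.

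Targets of p53 were also higher on balance, with 14 of 25 risen (56%), 3 fallen (12%) and a median of 0.86. Phlda3, an inhibitor of AKT signalling, rose 31.2-fold from 0.225 ± 0.147 to 7.39 ± 1.80 CPM, and the death receptor genes Tnfrsf10b and Eda2r rose 17.2-fold and 17.1-fold from under 0.2 CPM. Bbc3, which encodes the pro-apoptotic PUMA, went the other way, from 34.9, 24.1 and 26.2 CPM to 10.7, 7.40 and 7.23 CPM (log2 change -1.75 with SE 0.32, adjusted p = 0.000778). Apoptosis regulators as a group had 5 members higher and 9 lower of 25, shares of 20% and 36% against 19.6% and 19% of all genes tested. Bmf, another pro-apoptotic BH3-only gene, fell from 9.77, 6.63 and 7.58 CPM to 0.15, 0 and 0.187 CPM (62.7-fold, adjusted p = 1.76e-08). Bik and Bid, of the same class, fell 6.84-fold and 2.76-fold, whereas Apaf1, the scaffold of the apoptosome, rose 3.53-fold.

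Of 32 genes of the senescence-associated secretory response and the nuclear lamina, only 17 had enough reads to be tested, of which 9 rose and 3 fell. The adhesion molecule gene Icam1 rose 4.40-fold (adjusted p = 1.46e-05). Lmnb1 and Hmgb2, which are known to be lost in senescent cells, rose 3.07-fold and 7.16-fold. Without replicate 3 at 48 h, 5 members of the list rose.

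Protein synthesis genes shifted by smaller amounts. Of 78 cytosolic ribosomal protein genes, 60 rose and none fell, with a median log2 fold change of 0.57 and 1 member over 2-fold, Rpl12, from 236, 259 and 237.97 CPM to 448, 573 and 475 CPM (log2 change 1.03 with SE 0.16, adjusted p = 5.07e-05). Their summed level was 21140 to 24520 CPM at 0 h and 29700 to 39360 CPM at 48 h. Of 35 ribosome biogenesis genes, 16 rose and none fell (median 0.35), led by the nucleolar proteins Nop58 (3.95-fold) and Nop56 (2.22-fold) and by Gar1 (2.71-fold). Of 31 proteasome subunit genes 7 rose (22.6%, near the 19.6% of all genes tested) and none fell, and 4 rose without replicate 3 at 0 h or without replicate 2 at 48 h. Psmd8 had the largest change, 1.57-fold.

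Nuclear genes of the respiratory chain leaned down, with 20 of 56 fallen, 2 risen and a median of -0.32. The count of falls was 7 without replicate 2 at 0 h, 10 without replicate 1 at 48 h and 8 without replicate 3 at 48 h, and 1 rose without replicate 1 or 3 at 0 h or replicate 2 at 48 h. Ndufa6 and Ndufs7, subunits of complex I, fell 1.67-fold and 1.57-fold. Of the mitochondrial genome, mt-Cytb averaged 31926 ± 9404 CPM before and 16486 ± 5052 CPM after hepatectomy (log2 change -0.95 with SE 0.26, adjusted p = 0.00728), and it did not pass in the fit with a replicate block (adjusted p = 0.0635).

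Hepatocyte functions fell in blocks. Of 45 genes of the urea cycle and amino acid catabolism, 30 fell and 2 rose, with a median of -0.66. Tdo2, the first enzyme of tryptophan breakdown, was at 1620, 1847 and 1494 CPM at 0 h and at 373, 325 and 339 CPM at 48 h (4.79-fold lower, log2 change -2.26 with SE 0.17, adjusted p = 1.07e-08). Hpd, of tyrosine breakdown, fell 2.95-fold, Prodh, of proline breakdown, 3.19-fold, and Bckdha, of branched-chain amino acid breakdown, 2.79-fold. Otc of the urea cycle fell from 654 to 275 CPM (log2 change -1.25 with SE 0.17), whereas Cps1 did not pass (-0.41, adjusted p = 0.0798).

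Bile acid genes fell in 18 of 27 tested cases and rose in 2, with a median of -0.90; 1 rose when any single P16 library was left out. Cyp8b1, the enzyme that directs synthesis to cholic acid, was at 393, 505 and 525 CPM at 0 h and at 6.36, 3.94 and 6.63 CPM at 48 h (83.3-fold, log2 change -6.38 with SE 0.50, adjusted p = 8.03e-06). In GFP mice it went from 616, 389 and 564 CPM to 43.9, 13.8 and 18.2 CPM. The difference between the arms did not pass the test. Cyp7b1 of the alternative pathway fell 4.66-fold and the uptake transporter genes Slco1a1 and Slc10a1 fell by 1.74 and 1.23 on the log2 scale. Cyp7a1, the rate-limiting enzyme of the classic pathway, was at 34.9 CPM at 0 h and 13.8 CPM at 48 h and did not pass (adjusted p = 0.134). Slc51b, a subunit of the basolateral exporter, rose 11.3-fold to 2.38 ± 0.448 CPM.

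Drug-metabolising enzymes fell more often than they rose, with exceptions of large size. Of 39 tested cytochrome P450 genes of families 1 to 3, 20 fell and 5 rose (median -0.55), and of 41 conjugation enzymes 18 fell and 8 rose. Cyp2e1, the ethanol-oxidising P450 of the pericentral zone, fell from 5163, 6185 and 4545 CPM to 1059, 1750 and 906 CPM (4.28-fold, adjusted p = 9.52e-07), and Cyp2d9 fell 4.93-fold. The glutathione transferase genes Gsta1 and Gstm3 rose 32.2-fold and 28.4-fold; Gstm3 was at 87.2, 53.3 and 83.2 CPM at 0 h and at 2127, 1173 and 3043 CPM at 48 h (adjusted p = 0.000297). The sulfotransferase gene Sult2a8 fell 8.86-fold from 1074.6 ± 162 to 121 ± 25.3 CPM. Reads of near-identical members of these families may have been split or set aside in counting.

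Genes known to be higher in male than in female mouse liver fell together: 18 of 23 tested, with none risen and a median of -2.00. The summed level of the list went from 47320 to 59830 CPM at 0 h to 15440 to 18300 CPM at 48 h. Elovl3, a fatty acid elongase, was at 634, 613 and 842 CPM at 0 h and at 70.6, 30.9 and 51.4 CPM at 48 h (13.6-fold, adjusted p = 5.09e-05), and the steroid dehydrogenase gene Hsd3b5 went from 223, 363 and 286 CPM to 19.8, 24.3 and 17.7 CPM (14.1-fold, adjusted p = 0.000476). The urinary pheromone-carrier genes Mup21 and Mup7 fell 12.8-fold and 7.66-fold. Of genes higher in female liver, 13 of 26 were tested; 6 rose and none fell (median 1.28), among them Cyp2a4, from 3 reads in all at 0 h (ratio 49.2, 95% counting interval 16.6 to 240.5). Bcl6, a repressor of female-biased genes in male liver, fell from 44.3, 51.6 and 82.1 CPM to 20.1, 5.67 and 6.91 CPM (5.42-fold, log2 change -2.44 with SE 0.49, adjusted p = 0.00378). Ghr, the growth hormone receptor gene, fell 3.18-fold from 498 ± 29.6 to 156 ± 18.5 CPM (adjusted p = 6.06e-08).

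Most genes of fuel oxidation and glucose output that passed were lower. Of 36 genes of fatty acid oxidation and ketogenesis, 21 fell and 2 rose (median -0.50), and the thiolase gene Acaa1b fell 4.04-fold. Of 21 genes of gluconeogenesis and glycogen, 10 fell and 2 rose (median -0.61; none rose without replicate 1 or 3 at 0 h or replicate 1 at 48 h, and 1 without replicate 3 at 48 h), and G6pc, the enzyme that releases glucose, fell 3.62-fold from 215 ± 36.5 to 59.4 ± 17.5 CPM. Of 29 glycolysis and pentose phosphate genes, 10 rose (34.5%) and 6 fell (20.7%). Pfkfb3, an activator of phosphofructokinase, and Pkm, the pyruvate kinase of proliferating cells, rose 4.28-fold and 2.85-fold. Pklr, the liver form, fell 3.13-fold. Lipogenesis and lipid storage had 7 higher and 6 lower of 33, shares of 21.2% and 18.2% against 19.6% and 19% of all genes tested. Scd2 of this list rose 13.4-fold, and between 2 and 4 members rose when any P16 library other than replicate 2 at 48 h was left out. Cholesterol synthesis and uptake had 2 members higher (7.14%) and 1 lower (3.57%), the sterol transporter gene Abcg8 (1.61-fold), of 28. In this list 2 fell without replicate 2 at 0 h and 3 without replicate 2 at 48 h, and fitted on the P16 libraries alone 7 rose and 4 fell.

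Among the largest falls outside these lists were Csad, the taurine-synthesising decarboxylase, from 529, 220 and 682 CPM to 21.3, 12.4 and 25.2 CPM (24.2-fold, adjusted p = 0.000179), and Slc13a2, a citrate transporter, from 11.7, 8.94 and 15.3 CPM to 0.45, 0.185 and 0.42 CPM (32.5-fold, adjusted p = 1.03e-07). The carbonic anhydrase genes Car3 and Car1 fell 13.3-fold and 30.6-fold. No overlap between the times in P16 mice was part of the rule that named Csad, Car3 and Slc13a2. In GFP mice these genes had no overlap either, and the share of all genes tested without overlap is not given here.

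Zonal markers leaned down, the periportal ones more often. Of 19 pericentral genes 5 fell (26.3%) and 1 rose. Of 21 periportal genes 9 fell (42.9%) and 2 rose, against 19% fallen and 19.6% risen over all genes tested. The rises numbered 2 for pericentral genes without replicate 1 at 0 h and 1 for periportal genes without replicate 3 at 0 h or replicate 1 or 3 at 48 h. Pigr and Etnppl of the periportal zone fell 3.64-fold and 3.86-fold, while Apoa4, an apolipoprotein, rose from 13.2, 17.6 and 15.9 CPM to 203, 138 and 207 CPM (11.7-fold, adjusted p = 7.35e-06). The pericentral marker Glul, glutamine synthetase, and the Wnt target Axin2 did not pass (log2 changes -0.58 and -0.18).

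Transcription factors of hepatocyte identity fell in 11 of 26 cases and rose in 2 (median -0.40), with 7 fallen without replicate 3 at 48 h and 1 risen without any P16 library other than replicate 1 at 0 h. Cebpa, a factor known to restrain hepatocyte proliferation, was at 555, 695 and 584 CPM at 0 h and at 202, 210 and 154 CPM at 48 h (3.24-fold, log2 change -1.70 with SE 0.15, adjusted p = 9.64e-08). Ppara, the nuclear receptor of fatty acid oxidation, fell from 32.9, 20.8 and 28.3 CPM to 9.61, 12.5 and 9.99 CPM (2.55-fold, adjusted p = 1.94e-05). In GFP mice Ppara stood at 17.7, 20.0 and 18.5 CPM at 0 h and 16.02, 16.1 and 23.2 CPM at 48 h, groups that overlapped, and the difference between the arms did not pass. Nr1h4, the bile acid receptor FXR, and Nr1i3, the xenobiotic receptor CAR, fell 2.00-fold and 2.43-fold, and Hnf4a did not pass (log2 change -0.03, adjusted p = 0.906).

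Growth factor ligands and receptors had 11 of 27 tested members lower and 3 higher. Lifr, the receptor of leukaemia inhibitory factor, was at 405, 426 and 508 CPM at 0 h and at 102, 169 and 136 CPM at 48 h (3.29-fold, adjusted p = 3.26e-06), while Osmr, the related receptor of oncostatin M, rose from 0.556, 0.122 and 0.496 CPM to 3.10, 5.30 and 1.49 CPM (8.50-fold, adjusted p = 0.00622). Hgf, the hepatocyte growth factor made mainly by stellate and endothelial cells, rose from 0.272 ± 0.0816 to 1.77 ± 0.562 CPM (adjusted p = 0.00914). Egfr did not pass (log2 change 0.00, adjusted p = 0.999). Activin and TGF-beta genes had 4 members higher and 4 lower of 23, 17.4% each, against 19.6% and 19% of all genes tested. Smad6, an inhibitory SMAD, fell 2.72-fold. Of the activin and TGF-beta list, 1 or 2 rose without replicate 3 at 0 h or replicate 1 or 3 at 48 h. Of the Hippo, Notch and biliary list 3 rose and 1 fell of 20, shares of 15% and 5%. The Hippo pathway genes Ajuba (3.04-fold higher) and Amotl2 (2.21-fold lower) were among them.

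Immediate early genes, which also answer to the stress of cell isolation, had 5 higher and 3 lower of 23. These shares were 21.7% and 13%, against 19.6% and 19% of all genes tested. The summed level of the list in replicate 1 at 0 h was above that of the other P16 libraries (log2 0.72 against the group mean, with -0.81 and -0.35 in replicates 2 and 3). Without replicate 1 at 0 h, 9 members rose, and without replicate 2 at 0 h or replicate 1 or 3 at 48 h, 3 rose. Ier5 rose 4.34-fold and Klf10, a factor induced by TGF-beta, fell 3.26-fold; Fos, Jun and Egr1 did not pass. The part of cell isolation in these values was not tested.

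**Figure D4:**
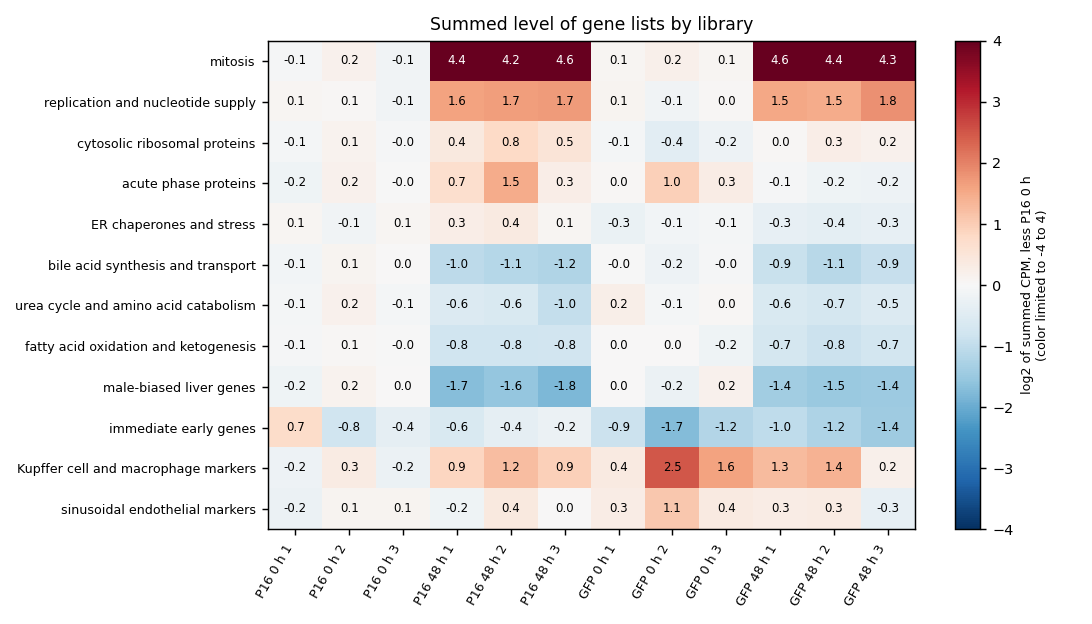
Each cell gives the log2 of the summed CPM of a gene list in 1 library less the mean of the P16 libraries at 0 h, with P16 libraries on the left and GFP libraries on the right. Mitosis genes stand at 4.16 to 4.62 in the P16 libraries at 48 h, acute phase proteins at 0.28 to 1.48 with the highest value in replicate 2, and bile acid, urea and male-biased genes below 0.

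Secreted proteins of the acute phase rose: 19 of 30 tested, with 2 fallen and a median of 1.21. A single member fell without replicate 1 or 2 at 0 h or replicate 1 or 3 at 48 h. Saa2, a serum amyloid A gene, was at 12.9, 20.4 and 17.0 CPM at 0 h and at 3808, 12019 and 1951 CPM at 48 h (353-fold, log2 change 8.46 with SE 1.94, adjusted p = 0.00899), and Lcn2, the iron-siderophore binding lipocalin, was at 0.953, 4.93 and 1.42 CPM at 0 h and at 607, 1141 and 370 CPM at 48 h (278-fold, adjusted p = 0.00404). Both genes were highest in replicate 2 at 48 h, as was the summed level of the list. In GFP mice 1 member rose and 10 fell, but there replicate 2 at 0 h held 5592 CPM of Saa2 against 29.1 and 362 CPM in the other libraries of that group. At 48 h the GFP libraries held 2180, 1713 and 1949 CPM of Saa2. Lcn2 was at 3.24, 155 and 12.9 CPM at 0 h and at 219, 289 and 210 CPM at 48 h in GFP mice, and did not pass there. None of the 30 members passed the test of the difference between the arms, for which the median of the list was 1.52 on the log2 scale and 23 members had an unadjusted p under 0.05, against 11.8% of all genes tested. Hpx, the haem carrier, rose 3.48-fold in P16 mice (adjusted p = 0.00396).

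The chaperones and stress genes of the endoplasmic reticulum had 8 members higher and 3 lower of 30. These shares were 26.7% and 10%, against 19.6% and 19% of all genes tested. From 3 to 5 were higher without replicate 2 or 3 at 0 h or without replicate 1 or 2 at 48 h. Manf, a secreted stress-responsive factor, rose 1.74-fold (adjusted p = 0.0109), and Derl3 and Trib3 fell 7.48-fold and 2.77-fold. Hspa5, the major chaperone, did not pass (log2 change 0.42, adjusted p = 0.101).

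Proteins known to fall in the acute phase, with other plasma carriers, fell in 10 of 18 cases and rose in 1, Afp, the fetal albumin relative, which went from 1.64 ± 0.581 to 5.58 ± 0.678 CPM (3.41-fold, adjusted p = 0.000505). Apoa2 and Serpina6, the latter encoding corticosteroid-binding globulin, fell 2.46-fold and 2.57-fold. Complement genes had 5 higher and 8 lower of 26, shares of 19.2% and 30.8% against 19.6% and 19% of all genes tested. C3, the central component, rose from 4210, 4841 and 4557 CPM to 8985, 13270 and 8184 CPM (2.24-fold, adjusted p = 8.33e-05), whereas C6, C8g and C1s1, of the terminal and classical pathways, fell 1.80-fold to 1.99-fold.

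Coagulation and fibrinolysis genes had 14 lower and 6 higher of 26, and 6 to 8 lower without replicate 2 at 0 h or without replicate 1 or 3 at 48 h. Proc, the protein C gene, and Klkb1, the prekallikrein gene, fell 2.15-fold and 3.54-fold. The series' title names thrombomodulin and PAR1. Thbd, the thrombomodulin gene, was at 0, 0.486 and 0.637 CPM at 0 h and at 3.70, 6.10 and 3.17 CPM at 48 h (10.9-fold, log2 change 3.45 with SE 0.63, adjusted p = 0.000349). F2r, the PAR1 gene, was at 15.96, 36.5 and 19.5 CPM at 0 h and then at 13.5, 8.07 and 15.3 CPM at 48 h (log2 change -0.97 with SE 0.28, adjusted p = 0.0154), and its call was lost without replicate 2 at 0 h (-0.53, adjusted p = 0.06647), in a fit of the P16 libraries alone (adjusted p = 0.06384) and in the fit with a replicate block (adjusted p = 0.09566). Both genes are also expressed by endothelial cells, and the sinusoidal endothelial markers are given with the other cell types.

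Iron genes had 4 higher and 7 lower of 20, shares of 20% and 35% against 19.6% and 19% of all genes tested. Between 2 and 4 were lower when any 0 h library or replicate 3 at 48 h was left out. The light chain of ferritin, Ftl1, rose 1.74-fold (adjusted p = 0.000558). Hamp, which encodes hepcidin, was at 1396, 1274 and 457 CPM at 0 h and then 121, 352 and 101 CPM at 48 h (log2 change -2.45 with SE 0.69, adjusted p = 0.0224), groups without overlap. Its call was lost without replicate 1 or 2 at 0 h or replicate 1 or 3 at 48 h (adjusted p from 0.0571 to 0.0774) and in a fit of the P16 libraries alone (adjusted p = 0.07089).

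Antioxidant genes of the NRF2 pathway had 10 higher (41.7%) and 4 lower (16.7%) of 24. The classic targets Nqo1, Hmox1 and Srxn1 were up 4.54-fold, 3.10-fold and 2.84-fold and catalase (Cat) was down 2.40-fold. Interferon-stimulated genes had 7 lower and 2 higher of 31, shares of 22.6% and 6.45% against 19% and 19.6% of all genes tested, Ifit1 and Ifit3 falling 3.79-fold and 3.95-fold. Of the interferon list 4 fell without replicate 1 at 48 h, and 4 rose without replicate 3 at 0 h. Among 20 clock genes 7 fell (35%) and 3 rose (15%), against 19% and 19.6% of all genes tested. Npas2, a partner of the clock activator, fell 5.22-fold. The 3 rises fell to 0 without replicate 2 or 3 at 0 h and to 1 without replicate 3 at 48 h. Clock time at collection is not stated in the labels.

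Marker genes of other liver and blood cells were followed in the same libraries. Kupffer cell and macrophage markers summed to 40.5 to 59.7 CPM at 0 h and 85.1 to 110 CPM at 48 h over 22 genes. Of these 3 rose (13.6%) and 1 fell (4.55%), with a median log2 fold change of 1.07. In GFP mice 1 rose and 4 fell (median -0.73), and the sums were 61.1, 264 and 145 CPM at 0 h and 114, 125 and 54.2 CPM at 48 h. The median difference between the arms was 1.57. None of the 22 passed its test, and 10 had an unadjusted p under 0.05, against 11.8% of all genes tested. Marco, a scavenger receptor of macrophages, rose from 0.238, 1.28 and 0.283 CPM to 11.3, 14.3 and 8.17 CPM (17.5-fold, adjusted p = 0.00168), and Cd74, of antigen presentation, fell 3.38-fold. Without replicate 1 at 48 h 2 macrophage markers fell, and fitted on the P16 libraries alone, 10 macrophage markers rose. Sinusoidal endothelial markers summed to 113 to 141 CPM at 0 h and 118 to 171 CPM at 48 h; none of 21 passed with edgeR, 2 had an unadjusted p under 0.05, and 1 rose without replicate 1 or 3 at 0 h. Stellate and fibroblast markers had 7 higher and 4 lower of 16 (summed level 70.7 to 118 CPM at 0 h, 113 to 159 CPM at 48 h), with Col1a1 rising from 0.215 ± 0.188 to 2.93 ± 1.20 CPM and Colec10 falling 3.18-fold; 4 rose without replicate 1 at 0 h or replicate 3 at 48 h. The part of these cells in the rises of acute phase and senescence-secretion genes was not tested.

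Of cholangiocyte markers 8 of 14 were tested, 3 rose and 1 fell (1 rose without replicate 1 or 3 at 0 h or replicate 2 at 48 h, and 2 fell without replicate 3 at 48 h), and the defining Krt7 and Krt19 had at most 4 reads in any P16 library. Of 19 lymphocyte markers 2 were tested and 1, Cd4, fell. Of 14 neutrophil and marrow markers only Lcn2, also an acute phase gene, and Prtn3 were tested, and both rose. Prtn3 went from 0.648 ± 0.565 to 119 ± 79.3 CPM. Of the members with too few reads to test, S100a8 had 0, 0 and 0 reads at 0 h and 4, 4 and 6 at 48 h in P16 mice. S100a9 had 1, 0 and 0 reads and then 7, 6 and 3, and Elane 0, 2 and 0 and then 9, 14 and 5. Ly6g, Mpo, Ngp, Camp and Retnlg had 0 reads in every P16 library. The globin genes Hba-a1, Hba-a2, Hbb-bs and Hbb-bt had at most 7 reads each in any P16 library, and of the 3 red cell markers tested Alas2 and Klf1 fell, 3.57-fold and 5.99-fold.

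Set beside the P16 response, the GFP mice had 2111 genes higher (17.2%) and 2006 lower (16.4%) at 48 h, together 33.6% of those tested. The arms used separate mice at both times. Of the 2398 genes higher in P16 mice, 1540 were also higher in GFP mice, which is 64.2% of the former and 72.9% of the latter set; of the 2333 lower, 1443 were shared (61.9% and 71.9%). The sign in GFP mice was the same for 94.4% of the higher and 93.9% of the lower genes, and among these sets, chosen for passing in P16 mice, the median log2 fold change was 0.97 in P16 and 0.71 in GFP mice for the higher genes and -0.85 and -0.64 for the lower genes. Genes called in opposite directions numbered 17.

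The difference between the responses passed the test for 12 genes (0.0979% of those tested), 4 more positive (0.0326%) and 8 more negative (0.0653%) in P16 mice. An unadjusted p under 0.05 was reached by 1451 genes, and 227 genes passed with DESeq2 and 1 with limma-voom. The count was 76 without replicate 1 and 19 without replicate 2 of the GFP mice at 0 h, 30 when replicate 2 among P16 mice at 0 h was left out, 2 without replicate 1 or 3 of the GFP mice at 48 h, and 4 and 35 without replicates 2 and 3 of the P16 mice at 48 h. Erbb3, the neuregulin receptor HER3, had the lowest p: it fell in P16 mice from 156, 127 and 148 CPM to 58.7, 50.8 and 50.8 CPM, and stood in GFP mice at 101, 84.8 and 88.1 CPM at 0 h and 92.6, 94.8 and 86.9 CPM at 48 h (difference -1.43, SE 0.17, adjusted p = 0.00131). The P16 libraries at 0 h were above and those at 48 h below every GFP library. Its call held in all 18 alternatives, with adjusted p up to 0.0104.

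Casp9, the initiator caspase of the apoptosome, followed the same course, with 17.0, 14.8 and 15.6 CPM at 0 h and 6.56, 5.18 and 5.69 CPM at 48 h in P16 mice against 10.4 to 12.6 CPM and 10.7 to 12.9 CPM in GFP mice. Mup7, Mup1, Tcp11l2 and the glucuronosyltransferase gene Ugt3a1 fell in both arms and further in P16 mice; Mup7 was at 545, 564 and 529 CPM at 48 h in P16 mice and at 1391, 966 and 1201 CPM in GFP mice. C3 and Grn, the progranulin gene, rose in P16 mice and did not pass in GFP mice, and the palmitoyltransferase gene Zdhhc20 rose in P16 and fell in GFP mice (log2 changes 0.61 and -0.63). Atxn2 and the adaptor gene Bcar1 fell in P16 and rose in GFP mice. The twelfth is a predicted gene model. The differences of the genes named here other than Erbb3 passed in 9 to 15 of 18 alternatives.

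**Figure D5:**
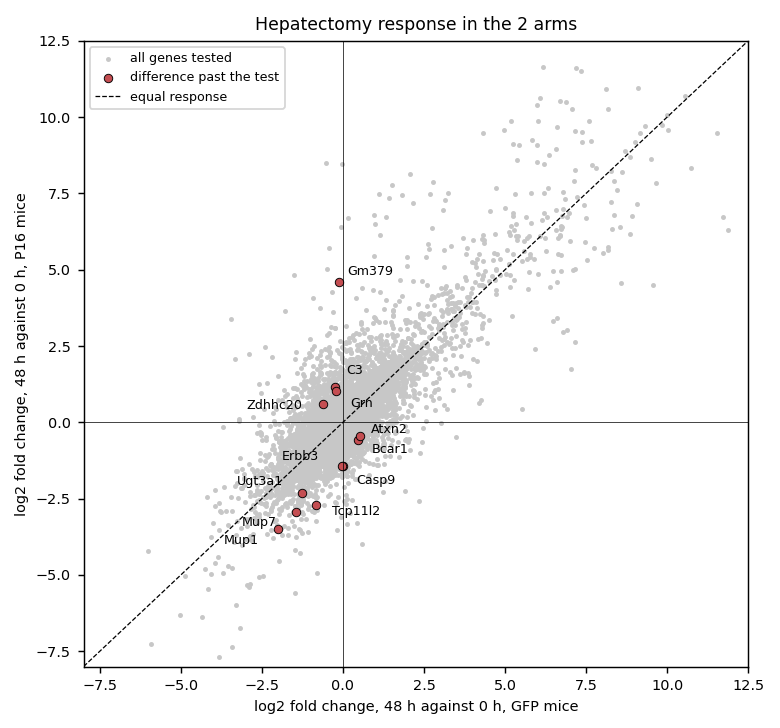
Each point is a gene, with its log2 fold change at 48 h against 0 h in GFP mice on the horizontal axis and in P16 mice on the vertical axis; the dashed line marks equal responses and the red points are the 12 genes whose difference passed the test. Erbb3 and Casp9 lie near 0 horizontally and at -1.42 and -1.44 vertically, and Mki67 lies among the unlabelled points at the upper right, at 7.60 and 9.86.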

How the data were processed

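Counts of reads per gene, deposited by the authors for 12 libraries and 31053 genes, were used as deposited. Per the submitters' processing notes, Trim Galore, STAR 2.5.0c, SAMtools, Picard, HTSeq and the mm10 build were used; neither the annotation release nor the strand setting of counting is stated there. Without strand, reads of a gene and of an overlapping gene on the other strand cannot be told apart. Among genes named here this touches Csad, Slc13a2, Elovl3, Casp9, Atxn2, Grn, Cebpa, Bcl6, Ccnd1, Cdkn1a, Icam1, Troap, Cdc25c, Gins2, Prtn3, Apoa4 and Manf, among others. Near-identical copies make Mup, Saa, Cyp, Gsta, Gstm and ribosomal protein genes uncertain. Reads in no feature (3.62 to 9.8% of a library) and ambiguous reads (4.87 to 8.8%) were left out. Of the gene IDs, 30934 matched GENCODE vM21, and promoters came from RefSeq on GRCm38.p6.

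Genes passing filterByExpr (12257) were fitted with edgeR 4.0.16 (R 4.3.3), TMM scaling and the robust quasi-likelihood F test over all 12 libraries with 4 group means, with Benjamini-Hochberg adjustment over all genes tested and a threshold of 0.05. The contrasts were 48 h against 0 h in each arm and their difference. The model treats the 3 mice of a group as replicates. All libraries of a group differed by more than counting noise. For sparse genes, 0 reads were set to a floor of 3 reads over a group, and intervals (95%, exact) cover counting error only. On simulated data (12053 genes, 200 changed), 52% of 2-fold and 77% of 4-fold changes were recovered in the P16 contrast with 5 false calls of 134, and 31% and 68% in the difference with 9 of 108. In the real P16 contrast a far larger share passed, 38.6% of the genes tested. The adjustment depends on that share, so the simulated recovery does not carry over to the P16 contrast. Alternatives were DESeq2 1.42.0, limma-voom (limma 3.58.1), other size factors and filters, a replicate block, fits on 1 arm and leaving out each library.

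Genes were named by rule: a set of preset genes, the 10 largest changes each way at 5 CPM or more without overlap, up to 5 members a list, those whose difference passed, and those of highest level. Some genes the rule names are not reported here. Exceptions are stated, and a few further well-known members of the lists (such as Otc, Cps1, Cyp7a1, Slc10a1, Egfr, Hnf4a and Fos) were added after their values were seen. The members and lists were chosen with earlier results of these data known.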

Additional observations from a re-analysis of the deposited data

Results flagged for a closer look

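For 11 named genes the response to hepatectomy differed between the P16 and the GFP mice by the test of the difference itself (edgeR quasi-likelihood, adjusted over all genes). The log2 difference, P16 less GFP, was -1.43 for Erbb3 (SE 0.17, adjusted p = 0.00131) and -1.85 for Tcp11l2 (SE 0.28, adjusted p = 0.0131). It was -1.41 for Casp9, -1.49 for Mup7, -1.51 for Mup1, -1.05 for Ugt3a1, -1.03 for Bcar1 and -0.995 for Atxn2. It was 1.40 for C3, 1.24 for Grn and 1.23 for Zdhhc20. The adjusted p of these 9 genes lay between 0.0351 and 0.0471.

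For Erbb3, Casp9, Bcar1 and Atxn2, the P16 libraries at 0 h all stood above the GFP libraries at 0 h, as did those of Ppara, whose difference did not pass (adjusted p = 0.0532). For C3 and Grn the highest GFP library at 0 h was replicate 2, which also held the most Saa2. The part of these 0 h levels in the differences was not tested.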

How the results depend on the processing

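The count of genes that passed in P16 mice, 4731, was 5057 with DESeq2, 4721 with limma-voom and 4527 in a fit of the P16 libraries alone; it ranged from 3885 to 4246 when 1 library was left out. In GFP mice it was 4117, and 3011 to 4067 with 1 library left out. Of the P16 genes, 4714 also passed with DESeq2. The difference between the arms was the least stable result: 12 genes as reported, 227 with DESeq2, 1 with limma-voom, 173 with no filter on low counts and 2 to 76 with 1 library left out. The cause was not tested. The mice were separate at each time. Deviations of same-numbered P16 libraries from their group means correlated at -0.05, 0.03 and 0.01. With 3 libraries a group, such values cannot exclude a batch shared by replicate number. With a replicate block, 4393 genes passed in P16 mice, 3725 in GFP mice and 48 for the difference. The estimate for Cdkn2a turned from -0.48 to 0.29 (adjusted p = 0.7858) without replicate 1 at 0 h in P16 mice, with -0.95 as the lowest value when 1 library was left out. The other named genes kept their direction. List medians near 0 changed sign, among them those of immediate early (-0.35 to 0.62), clock (-0.10 to 0.35), activin and TGF-beta (-0.04 to 0.16), lipogenesis (-0.16 to 0.08), complement (-0.17 to 0.04), apoptosis (-0.23 to 0.01), endothelial (-0.02 to 0.34) and cholangiocyte genes (-0.05 to 0.60). Over all results, 195 values no longer passed, 8 passed only in the alternative, 126 counts moved by over 1.5 times and 4109 did neither. With 3 mice a group and a median SE of 0.20, small changes and genes of few reads were not resolved at this depth.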

Other observations

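The most abundant transcripts of the P16 libraries included Alb and those of the mitochondrial genome. Transcripts of mt-Co1, a subunit of cytochrome oxidase, were at 119720, 65056 and 77385 CPM at 0 h and at 37656, 66544 and 55251 CPM at 48 h, groups that overlapped (log2 fold change -0.72, adjusted p = 0.0293). The call was lost without replicate 1 at 0 h and without replicate 1 or 3 at 48 h (adjusted p of 0.197, 0.141 and 0.06255), and in the fit with a replicate block (adjusted p = 0.1113).

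Of the 17 genes called in opposite directions in the arms, 7 rose in P16 mice and fell in GFP mice, among them the fibrinogen genes Fgb and Fgg. The rise of Fgb did not pass without replicate 2 at 48 h in P16 mice (adjusted p = 0.07465). The other 10, which fell in P16 mice and rose in GFP mice, include Ocln of tight junctions and Mst1r, the receptor of macrophage-stimulating protein. These were picked out after their values were seen, and for 3 of the 17, Zdhhc20, Bcar1 and Atxn2, the difference itself passed the test.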
